A study of Mus musculus with 6 samples.

Results

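The clustered protocadherins form 3 gene arrays that lie one after another on mouse chromosome 18. Every row of the count table whose Ensembl identifier maps to a symbol starting with Pcdha, Pcdhb or Pcdhg and ending in an isoform name was taken as a member, which gave 59 of 55536 rows: 15 in the alpha cluster, 22 in the beta cluster and 22 in the gamma cluster. In the GENCODE vM39 annotation of GRCm39 the alpha cluster spans bases 37063237 to 37320716, the beta cluster 37397991 to 37657532 and the gamma cluster 37794846 to 37975014, all on the plus strand. The row Pcdha4b, counted here with alpha, is annotated as a read-through gene that runs from alpha into gamma, and it had 0 counts in all 6 libraries.

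Clustered protocadherins are cadherin-like cell surface proteins that bind an identical isoform on a neighbouring cell. They are best known from neurons, where each cell switches on its own small choice of isoforms and so carries an identity that lets its branches avoid each other. Each alpha and gamma isoform has its own promoter and its own large first exon, which is spliced to a few constant exons at the 3′ end of the cluster that encode a shared intracellular part. The beta isoforms have no constant exons, and each has a promoter of its own. In the annotation used here all 22 beta members have a single-exon transcript, and 17 have only that transcript. The last isoforms of the alpha and gamma clusters are called C-type, and in neurons they are expressed in most cells instead of being chosen one by one. Promoter choice is known to depend on the looping protein Ctcf, on cohesin, on DNA methylation, on Smchd1 and on histone H3K9 methylation by Setdb1.

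RNA was sequenced from Epcam+α6+ basal cells, sorted by FACS from dorsal skin of mouse embryos at E16.5, with 3 Ctrl and 3 TKO libraries. Embryos of both groups carried floxed Suv39h1 and Setdb1 and were Suv39h2-/-, so the controls also carried the Suv39h2 mutation, and tamoxifen was given to both groups. TKO embryos also carried K14CreERT2, a recombinase driven in basal keratinocytes that acts after tamoxifen, and Ctrl embryos did not. The 3 litters used for bulk RNA-seq had tamoxifen at E9.5, E10.5 and E11.5 and are described in the study as mosaic, so a TKO library can hold cells that escaped recombination. Total counts were 102159175, 136515436 and 104422632 in Ctrl 1, 2 and 3, and 116308383, 108957256 and 118413082 in TKO 1, 2 and 3. The labels carry a letter, F for Ctrl 1 and TKO 2 and M for the other libraries. It follows sex: Xist had 261307 and 298104 counts in the F libraries and 29 to 94 in the M libraries. The Y-linked Ddx3y was at 0 in the F libraries only. Libraries of replicate numbers 1 and 2 thus differ in sex between Ctrl and TKO. One library stands for one replicate number in the labels, which do not say that the libraries came from separate embryos, so p-values measure the spread between these libraries. Levels are given as CPM, a count scaled to the TMM-normalized library size, in which the floor of 3 counts lies between 0.0232 and 0.0303 CPM.

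The deleted genes were read first. Setdb1, an H3K9 methyltransferase, was at 125.5, 117.9 and 121.1 CPM in Ctrl and 95.3, 62.3 and 74.9 CPM in TKO. Every TKO library lay below every Ctrl library, by a log2 fold change of −0.65 ± 0.161 (SE), which did not pass the test in edgeR (adjusted p = 0.286) and was under a threshold of 0.05 in DESeq2 (adjusted p = 0.0449). Suv39h1 had a log2 fold change of −0.10, with overlapping groups. Suv39h2, labelled as knocked out in both groups, was at 15.6 to 17.1 CPM in Ctrl and 16.001 to 18.9 CPM in TKO, with overlapping groups, so reads of the gene were present in all 6 libraries. Counts over a whole gene also hold reads from exons outside a deleted part, and which exons were removed was not analysed here.

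The summed level of each kind of isoform was taken first. Summed over the 19 A-type and B-type gamma isoforms, the level was 77.3, 63.4 and 93.8 CPM in Ctrl and 150.2, 174.2 and 149.2 CPM in TKO, so that all TKO libraries lay above all Ctrl libraries (mean 78.2 ± 15.2 against 157.8 ± 14.2, 3 libraries each, 2.02-fold). Summed over the 3 gamma C-type isoforms it was 66.9, 58.4 and 78.6 CPM in Ctrl and 72.3, 83.1 and 85.3 CPM in TKO, and the groups overlapped. Each TKO library lay above the Ctrl library of the same replicate number, and the ratio of the means was 1.18. The beta sum was 36.3, 46.5 and 41.4 CPM in Ctrl and 28.1, 26.4 and 34.6 CPM in TKO, with every TKO library below every Ctrl library (0.718-fold). The alpha sum was 0.697, 0.364 and 0.733 CPM in Ctrl and 0.238, 0.480 and 0.181 CPM in TKO, with overlapping groups and few counts behind it. These sums are a description and were given no test.

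**Figure D1:**
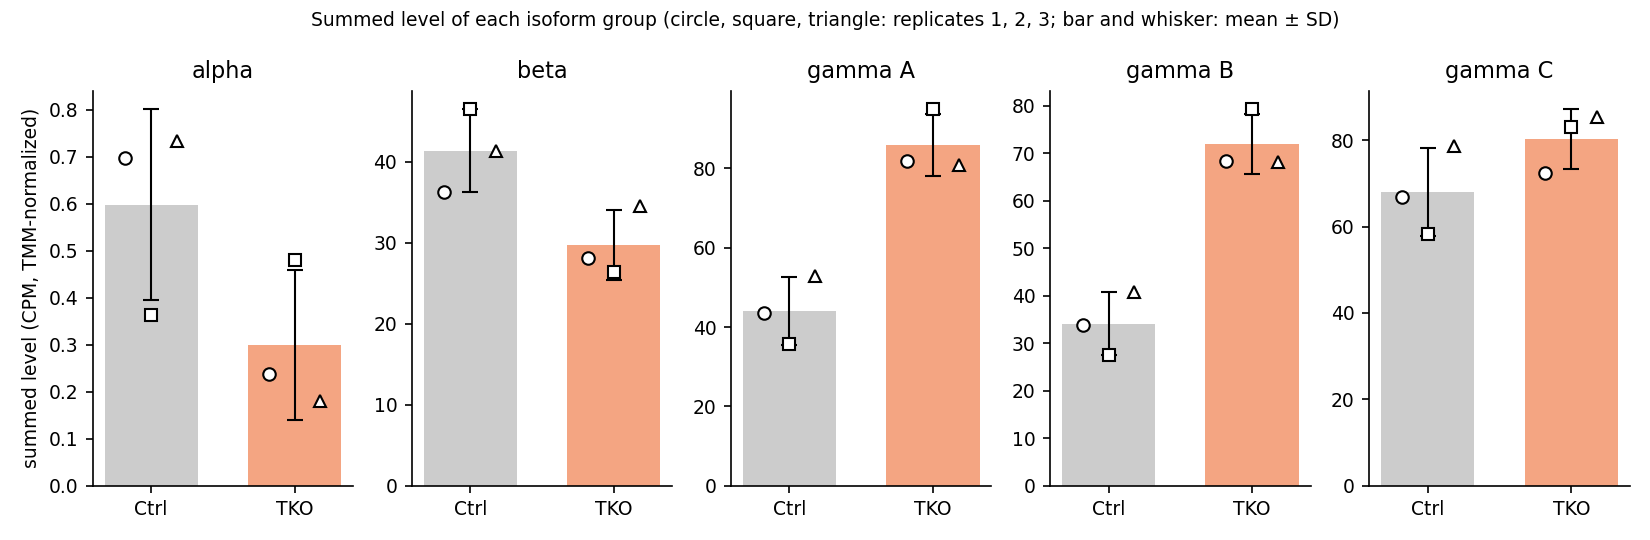
Summed level in TMM-normalized CPM (vertical axes, each from 0) of the alpha, beta, gamma A, gamma B and gamma C isoforms in Ctrl (grey) and TKO (orange). Bars and whiskers are means ± SD of 3 libraries and symbols are single libraries; the TKO libraries stand above all Ctrl libraries for gamma A and gamma B, below them for beta, and overlap them for gamma C and alpha.

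The shares within the protocadherin reads followed from these sums. The A-type and B-type isoforms held 53.6%, 52.0% and 54.4% of gamma CPM in Ctrl and 67.5%, 67.7% and 63.6% in TKO. Beta isoforms held 22.3% ± 4.57 (SD, n = 3) of the CPM of all members in Ctrl and 11.1% ± 1.78 in TKO. A share falls when another part of the total rises, so the 2 shares are not independent of each other.

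Each member was then compared with edgeR's quasi-likelihood test, fitted to all genes that passed a low-count filter, 20622 in number, with Benjamini-Hochberg adjustment over all of them. A gene was called where its adjusted p was under 0.05 and its log2 fold change beyond 1 in either direction. Over all genes tested, 27 (0.131%) were called higher and 0 (0%) lower in TKO, with 837 (4.06%) higher and 416 (2.02%) lower at an unadjusted p under 0.05. Blocking on the replicate number gave 44 called higher and 1 lower. DESeq2 on the same genes gave an adjusted p to 20613 and called 193 (0.936%) higher and 21 (0.102%) lower. The median log2 fold change of all genes was 0.01. Of the 59 members 45 passed the filter: 2 alpha, 21 beta and 22 gamma.

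In the gamma cluster all 22 isoforms were tested and all 22 had a positive log2 fold change, with a median of 0.95. By edgeR 1 of 22 was called higher, Pcdhgb2, against 0.131% of all genes, and 0 lower, and 15 of 22 were higher at an unadjusted p under 0.05, against 4.06% of all genes. In 16 of 22 every TKO library lay above every Ctrl library, a separation seen in 6.35% of all genes tested. DESeq2 called 8 of 22 higher, against 0.936% of all genes: Pcdhgb1, Pcdhga4, Pcdhgb2, Pcdhgb4, Pcdhga8, Pcdhgb5, Pcdhga9 and Pcdhga10. Among the 19 A-type and B-type isoforms the median log2 fold change was 1.04, with a range of 0.22 to 1.85, and it was positive in all 19 under each of the alternative fits.

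**Figure D2:**
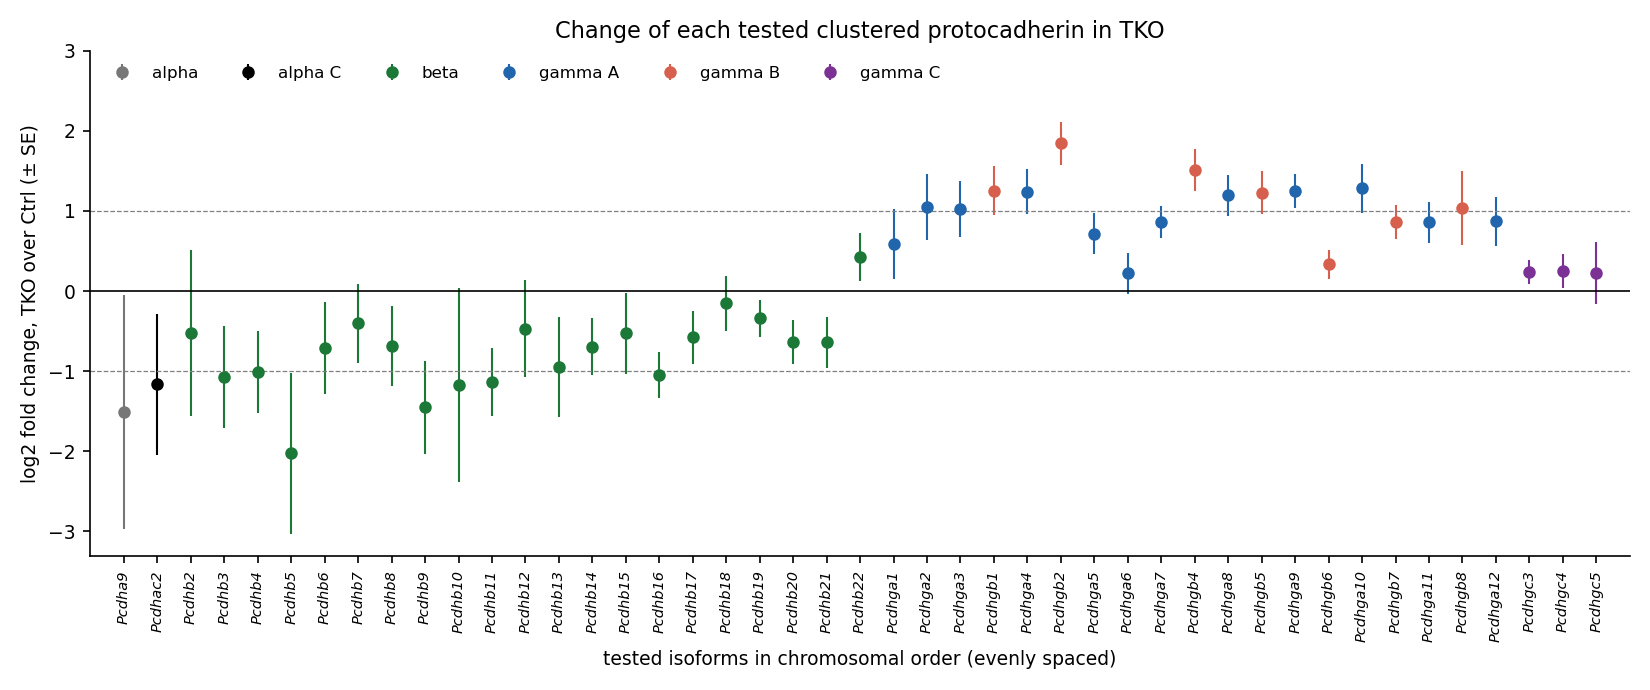
Log2 fold change of TKO over Ctrl with its standard error (vertical axis, dashed lines at 1 and −1) for the 45 tested isoforms in chromosomal order, coloured by kind. The beta isoforms lie below 0 except Pcdhb22, the last of them, and the gamma isoforms lie above 0, with the 3 C-type isoforms between 0.22 and 0.25.

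Pcdhgb2, a B-type gamma isoform, was at 1.92, 2.41 and 2.49 CPM in Ctrl and 6.27, 9.78 and 8.47 CPM in TKO. All TKO libraries stood above all Ctrl libraries. Its log2 fold change was 1.85 ± 0.269 (SE, edgeR adjusted p = 0.0397), the largest among the gamma isoforms, and it was 1.83 with the replicate block (adjusted p = 0.0305). The call held without TKO 1 (adjusted p = 0.0477) and was lost without each of the other 5 libraries, with adjusted p-values of 0.0521 to 0.212. It was also lost in edgeR with at least 10 counts required in every library (adjusted p = 0.0575). With the labels' F or M letter as a factor it was lost as well (edgeR adjusted p = 0.103). Over all alternatives the log2 fold change lay between 1.69 and 1.995 and the adjusted p between 1.13e-09 and 0.212.

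Pcdhgb4 was at 6.76, 3.55 and 6.36 CPM in Ctrl and 14.2, 18.6 and 14.9 CPM in TKO, without overlap. Its log2 fold change of 1.52 ± 0.262 (SE) had an adjusted p of 0.0879 in edgeR and was called by DESeq2. Pcdhga9, an A-type isoform, was at 5.40, 4.47 and 5.59 CPM in Ctrl and 10.9, 14.5 and 11.3 CPM in TKO. It had the same pattern, with a log2 fold change of 1.25 ± 0.212 (SE, edgeR adjusted p = 0.0874). Pcdhga8 had a log2 fold change of 1.20 and Pcdhgb5 of 1.23, also without overlap between groups. Neither was called by edgeR, with adjusted p-values of 0.185 and 0.194.

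In a list of upregulated genes that carry H3K9me3 near their start sites, the study names 9 gamma isoforms. Isoforms outside it may still be among those the study found upregulated. For 6 of the 9 (Pcdhga10, Pcdhga9, Pcdhgb1, Pcdhga4, Pcdhgb5 and Pcdhga6) it did so from bulk RNA-seq alone, that is from these libraries. Their direction, calls and separation here are therefore not independent evidence, nor are rates over the 9 that include them. Pcdhga7, Pcdhgb7 and Pcdhga3 were named from nascent RNA alone, which was not analysed here. All 9 had positive log2 fold changes, with a median of 1.23. By edgeR 0 of the 9 were called and 8 had an unadjusted p under 0.05, against 0.131% and 4.06% of all genes called higher or higher at that p. DESeq2 called 5 of the 9, against 0.936% of all genes, all among the 6 from bulk RNA-seq (Pcdhga10, Pcdhga9, Pcdhgb1, Pcdhga4 and Pcdhgb5). In 8 of the 9 the groups did not overlap, against 6.35% of all genes, all 3 named from nascent RNA included, whose median was 0.86. The exception was Pcdhga6, at 4.98, 3.52 and 5.41 CPM in Ctrl and 5.52, 4.82 and 5.88 CPM in TKO, whose log2 fold change of 0.22 was the smallest of the A-type and B-type isoforms. Its neighbours on either side, Pcdhga5 and Pcdhga7, had log2 fold changes of 0.72 and 0.86 and groups that did not overlap.

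The gamma isoforms did not all take their highest value in the same TKO library. Of the 19 A-type and B-type isoforms 11 were highest in TKO 2, 4 in TKO 1 and 4 in TKO 3. Pcdhga10, for instance, was at 11.3, 18.5 and 12.4 CPM in TKO 1, 2 and 3, against 6.33, 3.61 and 7.46 CPM in Ctrl. Pcdhgb1 was at 6.46, 5.99 and 10.3 CPM in TKO, with TKO 3 highest, against 2.35, 3.30 and 3.89 CPM in Ctrl. Pcdhga3, which lies just before it, was likewise highest in TKO 3, at 6.56 CPM against 3.53 and 3.85 CPM in TKO 1 and 2. In Ctrl 17 of the 19 were highest in Ctrl 3. Among A-type and B-type isoforms the groups overlapped in Pcdhga1, Pcdhga6 and Pcdhgb8, which had log2 fold changes of 0.59, 0.22 and 1.04.

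**Figure D3:**
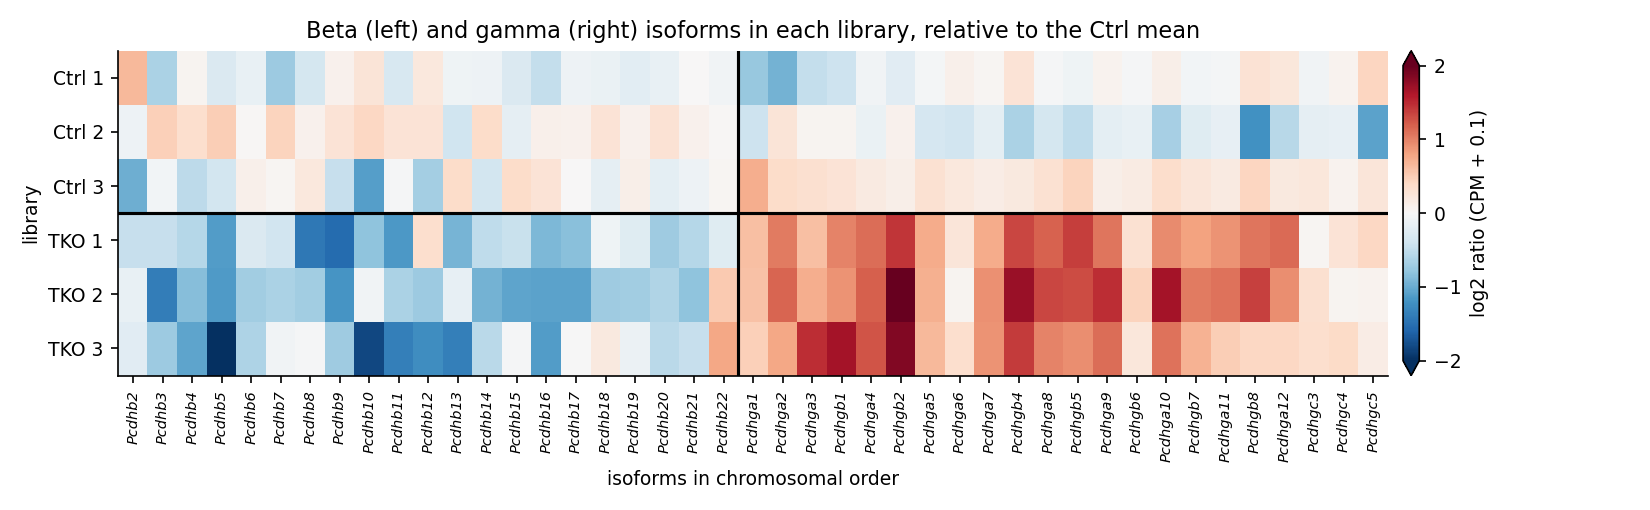
Log2 ratio of each library to the Ctrl mean of the same isoform (colour, CPM plus 0.1) for the 21 tested beta and 22 gamma isoforms (horizontal axis, chromosomal order) in the 6 libraries (vertical axis). Red is above and blue below the Ctrl mean; most gamma A and B isoforms are red and most beta isoforms blue in all 3 TKO libraries, with TKO 3 strongest at Pcdhga3 and Pcdhgb1.

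Of the C-type gamma isoforms, Pcdhgc3 stood apart from all other members in level. It was at 55.4, 51.1 and 67.7 CPM in Ctrl and 59.8, 72.7 and 73.0 CPM in TKO, with overlapping groups and a log2 fold change of 0.24 ± 0.151 (SE, edgeR unadjusted p = 0.145, adjusted p = 0.9998). To compare levels of single isoforms, CPM per kilobase of exon that no other member uses on the same strand was taken. Sums, shares and read totals elsewhere are not scaled to length. On that scale Pcdhgc3 was at 17.2 in Ctrl and 20.3 in TKO. The next highest isoform in Ctrl was Pcdhgb6 at 3.43 CPM per kilobase and in TKO it was Pcdhga10 at 5.35. Pcdhgc4, at 1.74 CPM per kilobase in Ctrl and 2.06 in TKO, and Pcdhgc5, at 0.761 and 0.889, lay within the range of the A-type and B-type isoforms. Pcdhgc4 had a log2 fold change of 0.25 and Pcdhgc5 one of 0.22. The Ctrl libraries of Pcdhgc5 spread widely, at 4.82, 1.63 and 4.19 CPM, and its sign turned to −0.12 without Ctrl 2.

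All 22 gamma isoforms share 2116 exonic bases at their 3′ ends, and how the counting treated reads there is not given in the sources used here. The smallest gamma count in any library was 65, for Pcdhga2 in Ctrl 1, where Pcdhgc3 had 5482. Had every read on the shared exons been counted for all 22 isoforms, Ctrl 1 could hold no more than 65 of them. Reads on the shared exons were not counted apart, so other ways of treating them were not tested. Reads on those exons cannot be assigned to one isoform. Whether the count of Pcdhgc3 includes reads on the shared exons was not tested, and its level per kilobase and its log2 fold change carry this limit.

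**Figure D4:**
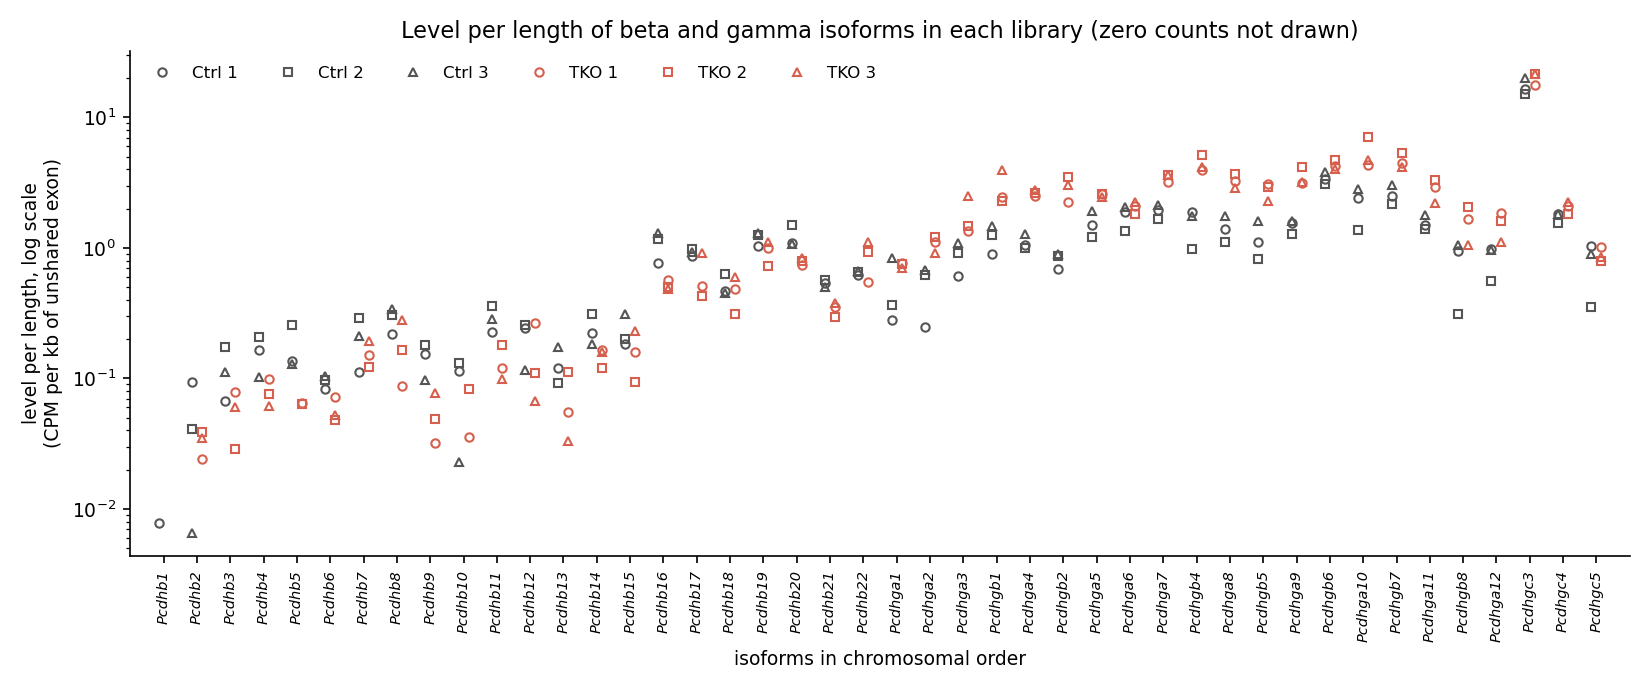
Level per length (vertical axis, log scale, CPM per kilobase of exon not shared with another member on the same strand) of the beta and gamma isoforms in chromosomal order, with each library drawn as a symbol (grey Ctrl, red TKO; zero counts not drawn). Pcdhgc3 stands above all others, Pcdhb1 to Pcdhb15 lie lowest, and Pcdhb16 to Pcdhb22 lie between them and most gamma isoforms.

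In the beta cluster 21 of 22 isoforms were tested. Pcdhb1, the remaining one, had counts only in Ctrl 1, at 0.0202 CPM, which is under the floor. Of the 21, 20 had a negative log2 fold change and the median was −0.68. Not one was called in either direction by edgeR, and 4 of 21 were lower at an unadjusted p under 0.05 (Pcdhb16, Pcdhb11, Pcdhb9 and Pcdhb20), against 2.02% of all genes. In 9 of 21 every TKO library lay below every Ctrl library, a separation found in 5.11% of all genes tested. DESeq2 called 1 of 21 lower, Pcdhb16 (adjusted p = 0.0150), against 0.102% of all genes. The count at an unadjusted p under 0.05 ranged from 1 to 5 when single libraries were left out, with 1 without Ctrl 2 and 1 without TKO 1. The sign turned to positive for Pcdhb2 without Ctrl 1 (0.43) and for Pcdhb18 without Ctrl 2 (0.0088) and without TKO 2 (0.07).

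Pcdhb16 was at 3.998, 6.06 and 6.81 CPM in Ctrl and 2.97, 2.64 and 2.54 CPM in TKO, without overlap. Its log2 fold change was −1.05 ± 0.286 (SE, edgeR unadjusted p = 0.00442, adjusted p = 0.352). Pcdhb11 was at 1.01, 1.59 and 1.27 CPM in Ctrl and 0.527, 0.797 and 0.436 CPM in TKO, and Pcdhb9 at 0.575, 0.673 and 0.362 CPM in Ctrl and 0.119, 0.181 and 0.288 CPM in TKO. The TKO libraries of both lay below all Ctrl libraries, with log2 fold changes of −1.14 and −1.45. Pcdhb20 was at 3.90, 5.34 and 3.79 CPM in Ctrl and 2.61, 2.82 and 2.97 CPM in TKO, a log2 fold change of −0.63. Pcdhb21 gave −0.64, also without overlap, and Pcdhb19, the beta isoform with the most reads, gave −0.34 with overlapping groups.

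Pcdhb22 was the exception. It is the beta gene nearest the gamma cluster, and it was at 3.79, 4.02 and 4.08 CPM in Ctrl and 3.35, 5.77 and 6.81 CPM in TKO. TKO 1 was the lowest of all 6 libraries and TKO 2 and 3 the highest. The log2 fold change of 0.42 ± 0.300 (SE) did not pass the test (edgeR unadjusted p = 0.190, adjusted p = 0.9998), and it was positive under every alternative, between 0.20 and 0.66. Its share of beta CPM was 10.4%, 8.64% and 9.87% in Ctrl and 11.9%, 21.9% and 19.7% in TKO. Leaving Pcdhb22 out of the beta sum left 37.4 ± 4.97 CPM in Ctrl against 24.4 ± 3.58 CPM for TKO (± SD, n = 3 each).

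Levels within the beta cluster differed between 2 stretches, a division chosen after the values were seen. The 14 isoforms from Pcdhb2 to Pcdhb15 lay between 0.0471 and 0.292 CPM per kilobase in Ctrl, and the 7 from Pcdhb16 to Pcdhb22 between 0.516 and 1.22. Their log2 fold changes were negative in 14 of 14 (median −0.83) and in 6 of 7 (median −0.58). Pcdhb5, chosen here for its size, had the most negative value, −2.02 ± 1.004 (SE), and was at 0.485, 0.913 and 0.455 CPM in Ctrl and 0.229, 0.226 and 0 CPM in TKO. The difference did not pass the test (edgeR unadjusted p = 0.0725, adjusted p = 0.889).

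The alpha cluster was close to the limit of detection. Of 90 values, 15 members in 6 libraries, 53 were 0 and 60 were at or under the floor of 3 counts, and the highest count was 25. Only Pcdhac2, a C-type isoform, had counts in all 6 libraries, at 0.212, 0.116 and 0.232 CPM in Ctrl and 0.0340, 0.0906 and 0.123 CPM in TKO, with overlapping groups. Its log2 fold change of −1.16 ± 0.882 (SE) did not pass the test (edgeR unadjusted p = 0.218). Pcdha9, at 0.111, 0.0851 and 0.102 CPM in Ctrl, had 12 counts in TKO 1 and 0 in TKO 2 and 3. The other C-type isoform, Pcdhac1, had 13 counts in Ctrl 3, 15 in TKO 2 and 0 elsewhere, and Pcdha12 had 4, 0 and 12 counts in Ctrl and 0, 16 and 7 in TKO. The other 13 alpha members did not pass the low-count filter and were not tested.

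Genes around and between the clusters were read next, to see how far the gamma difference reached. Within 500000 bases, 65 other genes are annotated and 36 were tested, with a median log2 fold change of 0.02. The nearest protein-coding genes outside the arrays, Zmat2 before alpha and the actin regulator Diaph1 after gamma, gave −0.12 and 0.06. Of the 18 tested genes before alpha and the 11 after gamma, 0 were called by edgeR or by DESeq2, with 0 and 1 at an unadjusted p under 0.05. The 1 was Rell2, with a log2 fold change of −1.01 (unadjusted p = 0.0289). Between the beta and gamma clusters, Slc25a2, a mitochondrial carrier of amino acids, and Taf7, a subunit of the general transcription factor TFIID, gave −1.25 (unadjusted p = 0.0508) and −0.18. Gm29994, within the gamma cluster, had the lowest value, −1.29 ± 1.24 (SE). These neighbours, and the lncRNAs that follow, were chosen after their values were seen.

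**Figure D5:**
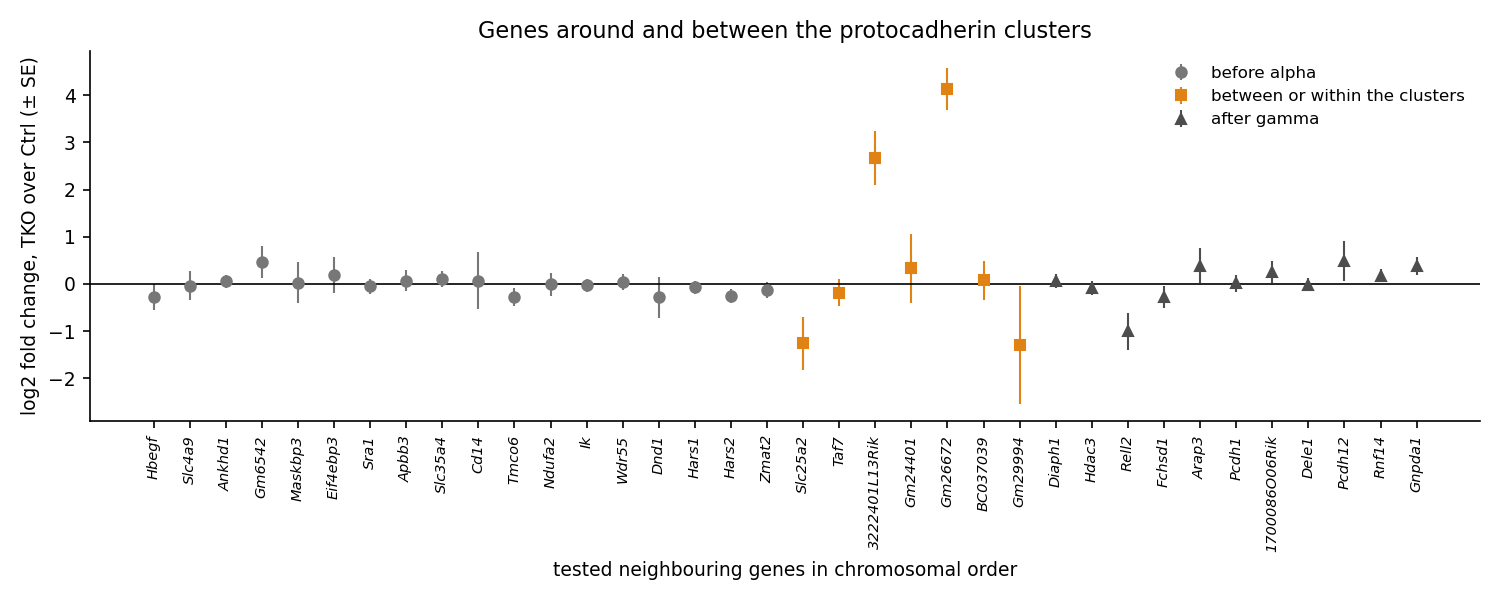
Log2 fold change of TKO over Ctrl with its standard error (vertical axis) for the 36 tested genes within 500000 bases of the arrays, in chromosomal order, with circles before alpha, squares between or within the clusters and triangles after gamma. The lncRNAs 3222401L13Rik and Gm26672 stand highest, at 2.66 and 4.14, and Gm29994, Slc25a2 and Rell2 lie lowest, at −1.29, −1.25 and −1.01.

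Both lncRNAs that stood out lie at the gamma cluster. Gm26672 is annotated on the minus strand, at bases 37873452 to 37901304 of chromosome 18 in GRCm39, antisense to the gamma isoforms. It was at 0.353, 0.217 and 0.306 CPM in Ctrl and 4.56, 7.72 and 3.16 CPM in TKO. With 28 to 35 counts in Ctrl against 384 to 853 in TKO, its log2 fold change was 4.14 ± 0.444 (SE, edgeR adjusted p = 0.00739), and it was the only neighbour called by edgeR. Without any 1 of the 3 Ctrl libraries the adjusted p rose to between 0.0597 and 0.0822. 3222401L13Rik lies on the plus strand at bases 37777160 to 37794795 and ends just before the first gamma exon. It was at 0.394, 0.929 and 0.158 CPM in Ctrl and 2.63, 3.32 and 3.49 CPM in TKO, without overlap, with a log2 fold change of 2.66 ± 0.574 (SE) that edgeR did not call (adjusted p = 0.185) and DESeq2 did (adjusted p = 0.000146).

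Exons of Gm26672 lie opposite exons of 6 gamma isoforms: Pcdhga9, Pcdhgb6, Pcdhga10, Pcdhgb7, Pcdhga11 and Pcdhga12. The overlap covers 7 bases of Pcdhga9 and all 2634 unshared bases of Pcdhga10. Whether the counting used the strand of the reads is not given in the sources used here, and without strand, reads of the 2 genes cannot be told apart. The minus-strand lncRNA BC037039, with a log2 fold change of 0.07, likewise shares 1560 bases with Pcdhgc3. The level per kilobase of Pcdhgc3 carries this limit too. The 13 A-type and B-type isoforms that share no exon base with Gm26672 had a median log2 fold change of 1.05, with 13 of 13 positive, 10 at an unadjusted p under 0.05 (4.06% of all genes) and 10 without overlap between groups (6.35% of all genes). The 6 that share bases had a median of 0.87, with 6 of 6 positive, 5 at an unadjusted p under 0.05 and 6 without overlap. Pcdhgb2, the called isoform, is among the 13.

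Protocadherin genes outside the clusters gave a comparison of the same family. Of 12 tested, 0 were called higher or lower by edgeR or DESeq2, 9 had positive values, and the median log2 fold change was 0.22. Pcdh7, on chromosome 5, was at 38.7, 40.4 and 49.3 CPM in Ctrl and 61.2, 77.1 and 56.1 CPM in TKO. Its groups did not overlap, and its log2 fold change of 0.60 had an unadjusted p of 0.00463 and an adjusted p of 0.362 in edgeR. Pcdh9, on chromosome 14, gave −0.60 (unadjusted p = 0.0250) with overlapping groups.

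A list of 18 regulators of chromatin, cohesin and DNA methylation was taken for the protocadherin promoters, with the deleted Setdb1, Suv39h1 and Suv39h2 among them. Of the 18, 0 were called by edgeR or DESeq2 and the median log2 fold change was 0.09. Setdb1, given above, had the lowest value, −0.65 (edgeR unadjusted p = 0.00253). Its DESeq2 adjusted p was 0.0449, and its fold change was too small for a call. Ctcf gave 0.09, and Smchd1, a chromosomal protein that holds the clusters silent in other cells, gave 0.29 (unadjusted p = 0.114). Dnmt3b, a de novo DNA methyltransferase, was at 16.9, 14.2 and 16.7 CPM in Ctrl and 23.9, 27.4 and 17.8 CPM in TKO. Its groups did not overlap, with a log2 fold change of 0.53 (unadjusted p = 0.0179, edgeR adjusted p = 0.658). Of 14 genes whose products act downstream of protocadherins inside the cell, 0 were called by edgeR or DESeq2. Cyfip2 and Abi2, both of the WAVE complex that drives actin branching, gave 0.62 and 0.40, and Ptk2b, a kinase that gamma protocadherins inhibit, gave 0.90, each with an unadjusted p under 0.05. These are 3 of the 14, against 4.06% of all genes higher at that p in edgeR. The groups of Ptk2b overlapped, at 9.98, 10.7 and 12.4 CPM in Ctrl and 17.96, 31.8 and 11.96 CPM in TKO, and without TKO 2 its log2 fold change was 0.44.

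Markers of the sorted cells and of others that skin can hold were read in the same libraries. The 11 keratinocyte markers summed to 43311, 42995 and 38496 CPM in Ctrl and 32062, 30002 and 32471 CPM in TKO, without overlap, with Krt5 the most abundant. The sum follows the keratins: of the 11 markers 5 had positive and 6 negative log2 fold changes, and the median was −0.04. The 3 at an unadjusted p under 0.05 in edgeR, all lower, were Krt15, Krt1 and Krt10, against 2.02% of all genes lower at that p. Itgb4, an integrin subunit of basal cells, gave 0.24 (unadjusted p = 0.143), its TKO libraries all above its Ctrl libraries. Krt15, a basal keratin, gave a log2 fold change of −1.18 that edgeR did not call (adjusted p = 0.185) and DESeq2 did (adjusted p = 0.000660), and the suprabasal keratin Krt1 was at a mean of 9941 CPM in Ctrl although the gate was for basal cells. Of 14 neuron markers 12 were tested, 0 were called by edgeR or DESeq2 and 0 had an unadjusted p under 0.05, and the sum of all 14 was 17.5 ± 3.44 CPM in Ctrl and 18.8 ± 1.48 in TKO (SD, n = 3 each). Most of it was Map2, at a mean of 11.6 CPM over all libraries. Of the 12 tested, 8 had negative log2 fold changes and the median was −0.56, with Snap25 at −1.46 and Rbfox3 at −1.37, both with every TKO library below every Ctrl library. Dcx went the other way, at 1.43 with all TKO libraries higher. Elavl3, Elavl4, Nefl, Nefm and Dcx were at 0 in at least 1 library.

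The 8 Merkel cell markers summed to 22.8, 25.9 and 25.1 CPM in Ctrl and 9.73, 12.2 and 12.5 CPM in TKO. All 7 that were tested were lower in every TKO library, against 5.11% of all genes, and at an unadjusted p under 0.05 in edgeR, against 2.02%. By edgeR 0 were called, and DESeq2 called 3 lower, against 0.102% of all genes. Piezo2 was the most abundant, and Krt20 was at 0 in 2 libraries. The 11 skeletal muscle markers summed to 8.11, 14.6 and 10.2 CPM in Ctrl and 38.3, 40.2 and 40.6 CPM in TKO. Of these 10 had positive log2 fold changes. By edgeR 1 (Myh3) was called higher, against 0.131% of all genes. DESeq2 called 5 higher (Myh3, Myh8, Acta1, Ttn and Actn2), against 0.936% of all genes. Ttn was the most abundant, and none was at 0 in any library. The 10 fibroblast markers, led by Col1a1, summed to 1246, 3477 and 3114 CPM in Ctrl and 2226, 2678 and 2905 CPM in TKO, lowest in Ctrl 1.

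The 6 endothelial markers, led by Cdh5, summed to 27.1, 27.0 and 37.0 CPM in Ctrl and 25.1, 64.2 and 51.5 CPM in TKO. All 6 had positive log2 fold changes, with a median of 0.60, 0 were called by edgeR or DESeq2, and Cdh5 gave 0.91 (unadjusted p = 0.0350, edgeR adjusted p = 0.762). The 7 immune markers, led by Csf1r, summed to 24.9, 44.5 and 15.4 CPM in Ctrl and 9.35, 80.8 and 19.5 CPM in TKO, lowest in TKO 1 and highest in TKO 2. The 10 glia and melanocyte markers, led by Mitf, summed to 13.9 ± 4.80 CPM in Ctrl and 18.2 ± 2.26 in TKO (SD, n = 3 each), and Foxd3 was at 0 in all libraries. Of the 9 tested, 8 had positive log2 fold changes, with a median of 0.43. By edgeR 0 were called, and DESeq2 called 1 higher, against 0.936% of all genes. The 1 was Mlana, a melanosome protein, at 14, 2 and 18 counts in Ctrl and 117, 169 and 37 in TKO. Its log2 fold change was 3.13 (unadjusted p = 0.00457 and adjusted p = 0.360 in edgeR, adjusted p = 0.0206 in DESeq2). The groups overlapped in the endothelial, immune, fibroblast, neuron and glia and melanocyte sums. Every TKO library lay above every Ctrl library in 4 of 11 muscle, 1 of 11 keratinocyte, 1 of 12 neuron and 1 of 9 glia and melanocyte markers. That separation was seen in 6.35% of all genes tested. Every TKO library lay below in 7 of 7 tested Merkel, 3 of 11 keratinocyte and 2 of 12 neuron markers, against 5.11% of all genes. The groups overlapped in all tested endothelial, immune and fibroblast markers. The part of any of these markers in the protocadherin differences was not tested. In bulk samples fewer cells of a type and less RNA per cell cannot be told apart, nor can a small gain in many cells and a large gain in few.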

How the data were processed

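Paired-end libraries were made from rRNA-depleted RNA. The authors trimmed reads with fastp and aligned them with STAR. They deposited unnormalized counts, 1 column per library. The study's methods name GRCm39 and the submitters' processing notes GRCm38; the counting program, annotation and strand setting are not given in the sources used here. Symbols and positions came from GENCODE vM39 for 51477 of 55536 identifiers (86.4% to 94.1% of counts). Members and gene lists were chosen with earlier results of these data known. Counts were filtered with filterByExpr (minimum count 10, minimum total 15), TMM-normalized and compared in edgeR 4.0.16 (glmQLFit, robust, and glmQLFTest, R 4.3.3). The method was tested on simulated data, with planted changes larger than the gamma and beta medians. That test does not show its power at changes of their size.

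Named genes are called members; in each cluster the 5 smallest p-values and 3 highest mean CPM; C-type isoforms; 9 isoforms named by the study; 5 chromatin genes and related genes at an unadjusted p under 0.05; and the most abundant gene of each marker list. Other genes were chosen after values were seen. Alternatives were DESeq2 1.42.0, other filters and factors, a replicate block, and single libraries left out. Labels number replicates 1 to 3 in both groups. Deviations from group means (log2 of CPM plus 0.5) of same-numbered libraries correlated at 0.188, 0.187 and 0.272 across genes. With a prior count of 2 the second value was 0.0873. The numbers were therefore taken as pairs in the replicate block, although the labels name no shared litter. The main edgeR fit used the group alone, so its p-values do not take the pairs into account.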

Additional observations from a re-analysis of the deposited data

How the results depend on the processing

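The direction of all 19 gamma A-type and B-type isoforms held under every alternative run, with medians of 0.96 to 1.29, while the numbers called did not. For all genes, calls higher and lower were 193 and 21 by DESeq2 on the same genes, 198 and 29 in its default workflow, and 213 and 22 with no low-count filter; 9 were higher with at least 10 counts in every library, and 44 higher and 1 lower with the replicate block. Leaving out 1 library gave 7 to 65 higher and 0 to 16 lower. Gamma calls were 8 and 8 by the DESeq2 fits, 7 with no filter, 0 with the strict filter, 0 with the labels' F or M letter as a factor and 0 to 1 with a library left out. Beta calls lower were 1 and 1 by DESeq2. Neighbouring genes called were 2, 2 and 2 by both DESeq2 fits and with no filter, and 0 to 1 with a library left out. The block, which pairs libraries of one replicate number, changed no other call.

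Signs turned for Pcdhb2 (0.43 without Ctrl 1), Pcdhb18 (0.0088 without Ctrl 2, 0.07 without TKO 2), Pcdhgc5 (−0.12 without Ctrl 2, up to 0.51 with another library left out), Mitf (−0.11 without TKO 3, up to 0.26), Col1a1 (−0.0050 with no filter, −0.36 without Ctrl 1, −0.11 without TKO 3, up to 0.30) and Csf1r (−0.42 with the block, −0.49 with the letter, −0.19 without Ctrl 3, −1.31 without TKO 2, up to 0.63). The cause was not tested. Of 15 alpha members 13 had too few counts to be tested.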
